A study of Mus musculus with 2 samples.

Results

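The tumour necrosis factor (TNF) superfamily of ligands, its receptors and the TRAF adaptors were described in mouse Tc9 and Tc1 cells. Their genes were taken by symbol, as every probe set of the array named Tnf, Lta, Ltb, Fasl, Cd40lg, Cd70, Ltbr, Fas, Cd27, Cd40, Ngfr or Edar, or numbered Tnfsf, Tnfrsf or Traf1 to Traf6. This gave 45 of the 19505 genes measured, each with 1 probe set. The rule uses symbols and no threshold on signal. Of these, 38 were detectable, meaning that the brighter array reached a log2 signal of 6.43, the median of all gene values. Cd27, Traf3, Tnfsf12 and Tnfsf13 were not analysed here.

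Tc9 and Tc1 cells are CD8 T cells steered in culture toward interleukin 9 and toward interferon gamma, and the series set out to find genes more strongly expressed in Tc9. All cells came from spleen and lymph node and were primed with bound anti-CD3 and soluble anti-CD28, and the strain, age and number of mice are not given in the labels. Tc9 cultures received IL-4 at 10 ng/mL, TGF-β at 1 ng/mL and an anti–IFN-γ antibody at 20 μg/mL, whereas Tc1 cultures received rhIL-2 at 10 ng/mL. After 3 days both were moved to medium with rhIL-2 at 10 ng/mL for 2 days, and RNA was taken on day 5. The labels give 1 array per group, so no difference below has a replicate check or a test, and each describes these arrays only. The title and description of the Tc9 sample call it Tc9 while its source name says Tc1, and the title was followed. As a check of the labels, Il9 had a log2 signal of 8.45 on the Tc9 array and 4.82 on the Tc1 array, while Ifng had 7.57 on the Tc9 array and 9.28 on the Tc1 array.

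TNF superfamily ligands are trimeric proteins, most of them held in the membrane of the cell that makes them, and each binds 1 or a few receptors. Receptors with a death domain recruit FADD or TRADD and can start cell death, while the others recruit TRAF adaptors and signal through NF-kappaB and MAP kinases. In activated CD8 T cells the family supplies killing through Fas ligand, TRAIL and TNF, and survival signals through costimulatory receptors such as OX40, CD30 and GITR.

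The family differed between the arrays in both directions, with the large differences mostly among ligands. Of the 38 detectable members, 4 (10.5%) were at least 2-fold higher on the Tc9 array, against 2.62% of the 10147 detectable genes. They were the ligands Tnfsf10, Tnfsf13b and Tnfsf11 and the receptor Tnfrsf8. A further 3 members (7.89%) were at least 2-fold lower, against 2.79% of detectable genes, namely the ligands Fasl and Lta and the receptor Fas. Centring the arrays on the median of all probe sets shifted every difference upward, to 3.24% of genes higher and 2.26% lower, with the same 4 members higher and 2 lower, Fas dropping out. Ligands made up 5 of these 7 genes and 11 of the 38. By any amount, 23 of the 38 (60.5%) were lower on the Tc9 array, against 43.7% of detectable genes, and the members' median difference was -0.13, against 0.05. With arrays centred on their median gene signal 20 of the 38 (52.6%) were lower, against 35.4% of detectable genes, with medians of -0.06 and 0.12. With arrays centred on the median of all probe sets 19 were lower (50%), against 30.8%, with medians of -0.016 and 0.16. In total RNA of a culture, fewer cells expressing a gene and less RNA per cell cannot be told apart.

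**Figure D1:**
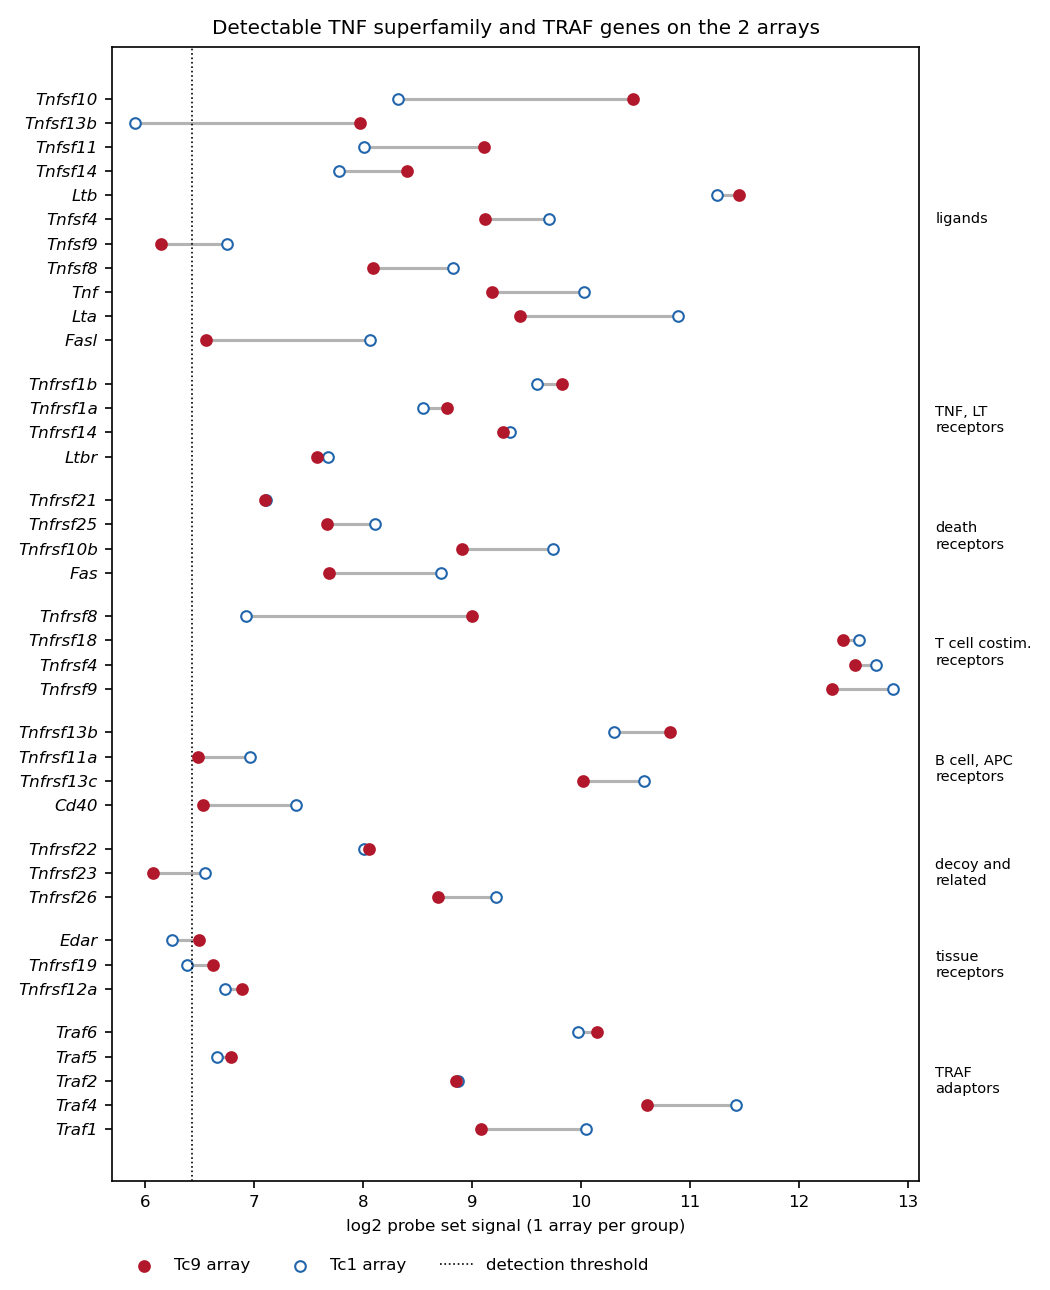
Log2 probe set signal of each of the 38 detectable members on the Tc9 array (filled points) and the Tc1 array (open points), grouped by role, with the detection threshold of 6.43 as a dotted line. Only the gap within a row can be read, since signals of different probe sets are not comparable. The widest gaps belong to Tnfsf10, Tnfrsf8 and Tnfsf13b, with Tc9 on the right, and to Fasl and Lta, with Tc9 on the left.

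Tnfsf10 encodes TRAIL, a death ligand that interferons are known to induce. Its log2 signal was 10.48 on the Tc9 array and 8.32 on the Tc1 array, which is 4.46-fold higher. It was the widest difference of any member and ranked 57th from the top among the 10147 detectable genes. Tnfsf13b encodes BAFF, a survival factor for B cells that is made mainly by myeloid cells and also by T cells. Its log2 signal was 7.98 on the Tc9 array and 5.90 on the Tc1 array, which lay under the threshold, so it was at least 2.92-fold higher. That bound takes the threshold of 6.43 as its floor. The 95th percentile of the array's control probe sets marked neg was 7.30 for Tc1, and a floor there would leave Tnfsf13b short of 2-fold. Tnfsf11 encodes RANKL, which drives osteoclast formation and is made by activated T cells. It had log2 signals of 9.11 on the Tc9 array and 8.004 on the Tc1 array and was 2.15-fold higher.

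Fasl encodes Fas ligand, with which cytotoxic T cells trigger death of cells that carry Fas. Its log2 signal was 6.56 on the Tc9 array, just above the threshold, and 8.06 on the Tc1 array, a 2.84-fold lower value. The Tc9 signal was under 7.02, the 95th percentile of neg control probe sets on that array, so the fold size is uncertain. Lta encodes lymphotoxin alpha, which is secreted as a trimer or joined to lymphotoxin beta in the membrane. It had 9.44 on the Tc9 array and 10.89 on the Tc1 array and was 2.72-fold lower.

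The promoter windows of the ligands that differed most in each direction are shown as context for these values, with matches to the motifs described below in capitals. They are RefSeq windows of build GRCm38.p6, written 5′ to 3′ on the strand of the gene, from 250 bases before the annotated start to 50 bases after it. Tnfsf10 lies at chr3:27316827-27317126 on the plus strand, Tnfsf13b (the second of its annotated starts) at chr8:10006383-10006682 on the plus strand, Fasl at chr1:161788446-161788745 on the minus strand, and Lta at chr17:35205302-35205601 on the minus strand.
Tnfsf10: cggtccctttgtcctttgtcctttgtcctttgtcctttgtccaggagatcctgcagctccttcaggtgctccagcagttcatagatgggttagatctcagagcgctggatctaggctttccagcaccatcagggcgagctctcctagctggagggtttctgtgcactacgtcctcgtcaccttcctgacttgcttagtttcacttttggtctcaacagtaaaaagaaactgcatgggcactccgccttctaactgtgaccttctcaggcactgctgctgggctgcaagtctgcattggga
Tnfsf13b: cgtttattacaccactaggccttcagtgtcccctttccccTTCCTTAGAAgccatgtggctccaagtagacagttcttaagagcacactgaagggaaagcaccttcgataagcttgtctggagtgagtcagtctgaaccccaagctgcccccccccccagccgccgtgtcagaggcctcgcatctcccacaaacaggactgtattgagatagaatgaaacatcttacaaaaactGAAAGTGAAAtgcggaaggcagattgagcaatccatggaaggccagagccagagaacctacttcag
Fasl: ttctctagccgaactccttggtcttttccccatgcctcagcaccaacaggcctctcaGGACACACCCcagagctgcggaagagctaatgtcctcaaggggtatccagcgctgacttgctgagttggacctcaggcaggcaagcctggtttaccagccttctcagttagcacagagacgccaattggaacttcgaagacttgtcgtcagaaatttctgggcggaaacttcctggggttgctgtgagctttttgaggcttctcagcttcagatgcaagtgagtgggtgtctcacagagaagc
Lta: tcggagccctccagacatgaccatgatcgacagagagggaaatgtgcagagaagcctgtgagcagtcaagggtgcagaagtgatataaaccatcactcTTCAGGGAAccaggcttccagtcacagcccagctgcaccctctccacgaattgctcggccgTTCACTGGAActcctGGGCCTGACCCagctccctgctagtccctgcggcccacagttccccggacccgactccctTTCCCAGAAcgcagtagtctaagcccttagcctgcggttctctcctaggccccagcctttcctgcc
The motifs were searched on both strands, N stands for any base, and positions give the first base of a match counted from the annotated start. They were GGG and CC with 5 bases of any kind between them for kappaB, GAAA and GAAA with 2 bases between them for the interferon-stimulated response element, TTCNNNGAA for the gamma-activated sequence, TTC and GAA with 4 bases between them for the STAT6-type element, GTCTAGAC for a SMAD palindrome and TCACACCT for T-box factors. Matches of the kappaB motif can overlap one another, as the ones at -76 and -75 of Lta do.

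The Tnfsf10 window held none of the 6 motifs. The Tnfsf13b window held GAAAGTGAAA at -16, an interferon-stimulated response element match found in 3.44% of all 32851 windows, and the STAT6-type match TTCCTTAGAA at -210, a motif found in 6.95% of windows. The window of the first annotated Tnfsf13b start holds the same STAT6-type match and no interferon-stimulated response element match. The Lta window held gamma-activated sequence matches at -152 and -16, a motif in 8.3% of windows, beside a STAT6-type match at -91 and the kappaB matches. The Fasl window held 1 kappaB match, at -193, a motif loose enough to occur in 50.8% of all windows. Across the 40 windows of the 36 members with one, the kappaB motif was in 26 (65%), the gamma-activated sequence in 9 (22.5%), and the interferon-stimulated response element and the STAT6-type element in 4 each (10%). The 4 STAT6-type windows belong to 3 members, since the 2 Tnfsf13b windows overlap and hold the same site. No member window held the SMAD or T-box letters, which 0.213% and 1.28% of all windows hold. A match of letters describes the sequence and does not show a bound site.

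The other detectable ligands differed by less than 2-fold. Tnfsf14 encodes LIGHT, a costimulatory ligand of T cells, and was 1.55-fold higher, with log2 signals of 8.41 on the Tc9 array and 7.78 on the Tc1 array. Ltb, the membrane-anchoring partner of lymphotoxin alpha, had 11.45 on the Tc9 array and 11.25 on the Tc1 array, a difference of 0.20. Tnf, the founding inflammatory cytokine of the family, was 1.81-fold lower, with 9.18 on the Tc9 array and 10.03 on the Tc1 array. Tnfsf8, the CD30 ligand, had 8.09 on the Tc9 array and 8.83 on the Tc1 array and was 1.67-fold lower. Tnfsf4, the OX40 ligand, was 1.51-fold lower, with 9.11 on the Tc9 array and 9.71 on the Tc1 array. Tnfsf9, the ligand of the costimulatory receptor Tnfrsf9, fell under the threshold on the Tc9 array, at 6.15, against 6.76 on the Tc1 array, so it was at least 1.25-fold lower.

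By a size rule of 1.5-fold, chosen after seeing the data, few ligands lay between a higher and a lower set as deposited. Of the 11 detectable ligands, 4 were higher on the Tc9 array by 1.5-fold or more and 6 were lower by as much in measured values. Only Ltb lay within 1.5-fold as deposited, where 85.4% of all detectable genes lay. Several ligands were close to that size. With arrays centred on their median gene signal, Tnfsf4 at -0.53 and Tnfsf9 at -0.54 lay within 1.5-fold. Both also did with arrays centred on the median of all probe sets. After quantile normalization, Tnfsf9 at -0.52 and Tnfsf14 at 0.57 lay within it. Among all detectable genes, 7.8% were higher and 6.78% lower by that size. The ligands' median difference was -0.59, or -0.32 when dim values were raised to the threshold, against 0.05 for all detectable genes. Cd40lg, Cd70, Tnfsf15 and Tnfsf18 reached the threshold on neither array and get no fold. Cd40lg, the ligand through which CD4 helper T cells activate B cells and dendritic cells, was among these.

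**Figure D2:**
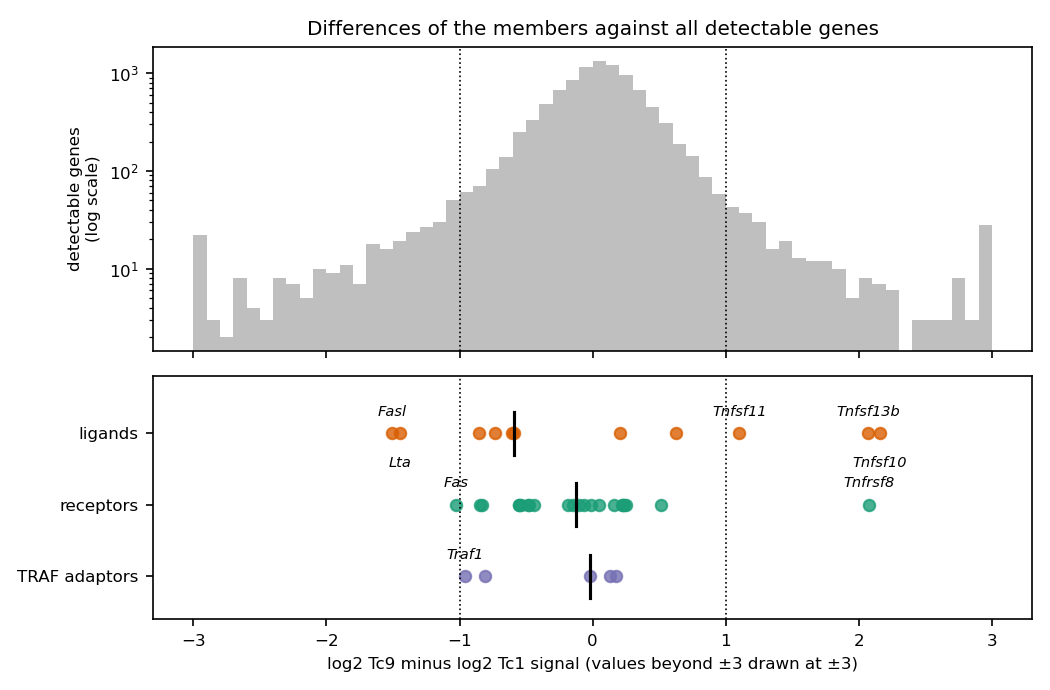
Top, the number of detectable genes (log axis) at each log2 Tc9 minus log2 Tc1 difference, in bins of 0.1. Bottom, the same difference for the 38 detectable members as ligands, receptors and TRAF adaptors, 1 point per gene, with the median of each class as a black bar and 2-fold as dotted lines. In measured values 1 of the 11 ligands lies within 1.5-fold, a size chosen after seeing the data, and 18 of the 22 receptors do. The receptor share is near that of all detectable genes. The ligands Tnfsf4, Tnfsf9 and Tnfsf14 lie just outside that size, at 1.51, 1.52 and 1.55-fold. Tnfsf9 was dim on the Tc9 array and was at least 1.25-fold lower. The receptors Tnfrsf13c and Tnfrsf9 lie just inside, both at 1.47-fold.

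Of 22 detectable receptors, 1 was higher and 1 was lower by 2-fold or more (4.55% each), against 2.62% and 2.79% of detectable genes. Within 1.5-fold lay 18 receptors (81.8%), close to the 85.4% of all detectable genes, and the receptors' median difference was -0.13. Tnfrsf8 encodes CD30, which appears on activated lymphocytes. It had log2 signals of 9.002 on the Tc9 array and 6.93 on the Tc1 array, and was 4.21-fold higher. The Tc1 signal passed the threshold but was under 7.30, the 95th percentile of neg control probe sets on that array. The size of this fold is therefore uncertain. The other costimulatory receptors had signals far above the threshold on each array and differed by less than 1.5-fold. Tnfrsf4, which encodes OX40, had 12.51 on the Tc9 array and 12.70 on the Tc1 array. Tnfrsf18, which encodes GITR, had 12.40 on the Tc9 array and 12.55 on the Tc1 array. Tnfrsf9, the receptor CD137, had 12.30 on the Tc9 array and 12.86 on the Tc1 array and was 1.47-fold lower. Of the 4 receptors measured in this role, Tnfrsf8 alone had the higher value on the Tc9 array.

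The death receptor list held 4 genes, of which 1 reached 2-fold. Fas, the receptor of Fas ligand, had 7.68 on the Tc9 array and 8.71 on the Tc1 array and was 2.04-fold lower. This value is just past 2-fold, and with arrays centred on their median gene signal the difference was -0.96 in place of -1.03, which ended the call. Tnfrsf10b, the mouse TRAIL death receptor, was 1.78-fold lower, with 8.91 on the Tc9 array and 9.74 on the Tc1 array. Tnfrsf25, a death receptor of T cells that binds the Tnfsf15 ligand, had 7.67 on the Tc9 array and 8.11 on the Tc1 array. Tnfrsf21, which restrains T cell activation in mice, had 7.10 on the Tc9 array and 7.11 on the Tc1 array, a sign that turned when arrays were centred.

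The receptors of TNF and lymphotoxin lay within 1.5-fold. Tnfrsf1a, the broadly expressed TNF receptor with a death domain, had 8.77 on the Tc9 array and 8.55 on the Tc1 array. Tnfrsf1b, the TNF receptor of activated T cells that signals through TRAFs, had 9.82 on the Tc9 array and 9.60 on the Tc1 array. Ltbr, the lymphotoxin beta receptor, and Tnfrsf14, a receptor of LIGHT, differed by -0.10 and -0.06, and both signs turned when arrays were centred on the median of all probe sets.

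Receptors best known from B cells and antigen-presenting cells were measured in these CD8 T cell cultures as well. Tnfrsf13b, which encodes TACI, a BAFF receptor, had 10.82 on the Tc9 array and 10.30 on the Tc1 array and was 1.43-fold higher. Tnfrsf13c, the main BAFF receptor of B cells, had 10.02 on the Tc9 array and 10.58 on the Tc1 array and was 1.47-fold lower. Cd40, which B cells and dendritic cells use to receive help from T cells, had 6.53 on the Tc9 array and 7.38 on the Tc1 array and was 1.80-fold lower. Tnfrsf11a, the receptor RANK, had 6.48 on the Tc9 array and 6.96 on the Tc1 array. Tnfrsf17, the BAFF receptor of plasma cells, was below the threshold on both arrays. Of 11 listed B cell markers, 10 were measured and 9 were detectable, and none was at 0. Their summed intensity was 3406 on the Tc9 array and 4812 on the Tc1 array, and all 10 had lower measured values on the Tc9 array, with a median difference of -0.43 and Ebf1 at only -0.01. Tnfrsf13b went in the other direction to these markers, and their part in the values of Tnfrsf13c and Cd40 was not tested.

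The remaining receptors lay near the threshold or within 1.5-fold. Tnfrsf22 and Tnfrsf23 encode mouse decoy receptors for TRAIL, and Tnfrsf26 is their neighbour and relative. Tnfrsf22 had 8.06 on the Tc9 array and 8.01 on the Tc1 array, Tnfrsf26 had 8.68 on the Tc9 array and 9.22 on the Tc1 array, and Tnfrsf23 fell under the threshold on the Tc9 array, at 6.07, against 6.55 on the Tc1 array. Because these genes are alike in sequence, their probe sets may not separate them. Tnfrsf12a, the receptor of the ligand TWEAK, had 6.89 on the Tc9 array and 6.73 on the Tc1 array. Tnfrsf19 and Edar, receptors of skin and nervous tissue, lay on either side of the threshold. Tnfrsf19 had 6.62 on the Tc9 array and 6.38 on the Tc1 array, and Edar had 6.50 on the Tc9 array and 6.25 on the Tc1 array. Tnfrsf11b, the secreted decoy osteoprotegerin, and Ngfr, the low-affinity neurotrophin receptor, were below the threshold on both arrays.

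Ligands were also set beside their own receptors. Of 25 ligand and receptor pairs listed from textbook knowledge, 23 had both genes measured and 17 had both detectable. The signs were opposite in 12 of the 17 and alike in 5 as deposited, 11 and 6 with arrays centred on their median gene signal, and 9 and 8 with arrays centred on the median of all probe sets. Several pairs share a gene, so they are not independent, and no excess of opposite signs is read from these counts. In the TRAIL system, Tnfsf10 differed by 2.16 and Tnfrsf10b by -0.83, with the decoys Tnfrsf22 at 0.05 and Tnfrsf23 at -0.48. In the BAFF system, the ligand Tnfsf13b differed by 2.07, the receptor Tnfrsf13b by 0.51 and the receptor Tnfrsf13c by -0.55. In the CD30 system, the receptor Tnfrsf8 differed by 2.08 and its ligand Tnfsf8 by -0.74. In the RANK system, Tnfsf11 differed by 1.10 and Tnfrsf11a by -0.48. The Tnfrsf11a signals, 6.48 on the Tc9 array and 6.96 on the Tc1 array, make that receptor difference uncertain. They were under the 95th percentile of neg control probe sets, 7.02 on the Tc9 array and 7.30 on the Tc1 array. Lta at -1.44 and Tnf at -0.85 stood against Tnfrsf1a and Tnfrsf1b, both at 0.22. Fasl at -1.50 and Fas at -1.03 formed the only pair with both genes at least 2-fold lower. In the pair of Tnfsf9 and Tnfrsf9 both were lower by less, at -0.61 and -0.55. Tnfsf4 and Tnfrsf4 were also both lower, at -0.59 and -0.19. The opposite signs of Ltb with Ltbr, and of Tnfsf14 with Ltbr and with Tnfrsf14, rest on receptor differences of 0.10 or less in size, which turned sign when arrays were centred on the median of all probe sets.

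**Figure D3:**
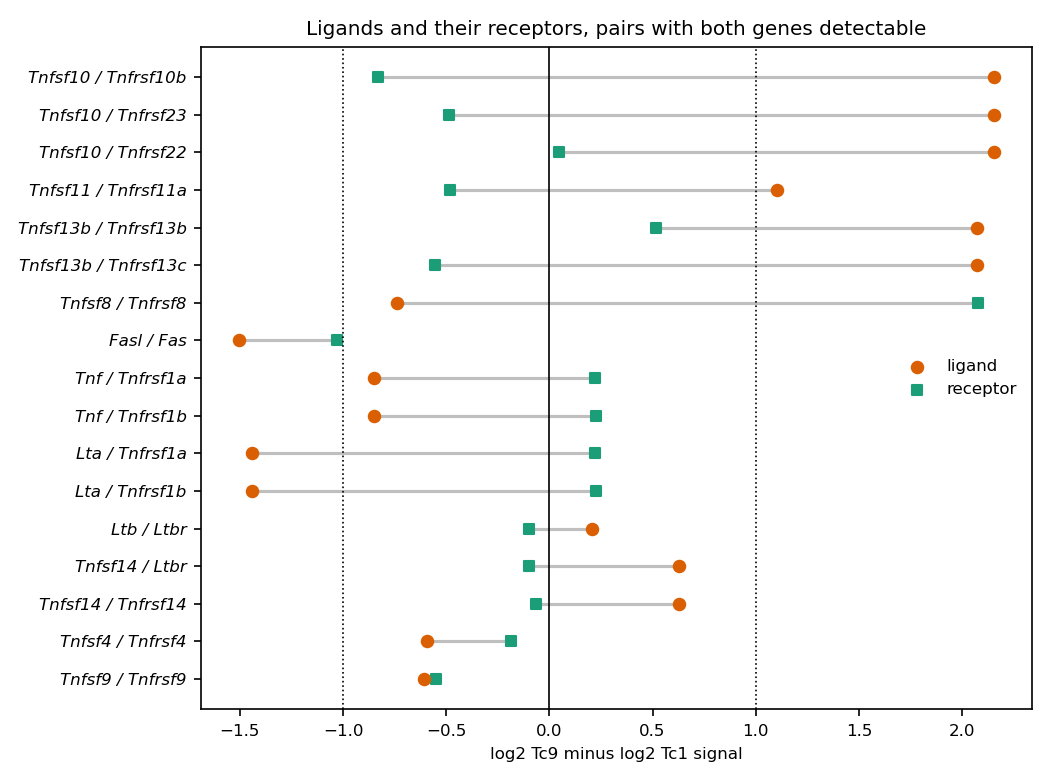
Log2 Tc9 minus log2 Tc1 difference of the ligand (circle) and of the receptor (square) for each of the 17 pairs with both genes detectable, 1 pair per row, with 2-fold as dotted lines. Ligand and receptor fall on opposite sides of 0 in 12 rows, with the widest gaps for Tnfsf10 with Tnfrsf10b and for Tnfsf8 with Tnfrsf8.

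The TRAF adaptors carry the signal of most of these receptors, and 5 were measured. None reached 2-fold. Traf1, which lacks the ubiquitin ligase domain of its relatives and is itself induced by NF-kappaB, had 9.08 on the Tc9 array and 10.04 on the Tc1 array and was 1.95-fold lower, the value nearest to 2-fold on the inner side. After quantile normalization its difference was -1.01, past 2-fold. Traf4, which is less tied to TNF receptors than the others, was 1.76-fold lower, with 10.60 on the Tc9 array and 11.42 on the Tc1 array. The main signalling adaptors hardly differed. Traf2, which serves both TNF receptors, differed by -0.02, a sign that turned when arrays were centred. Traf6, which serves CD40 and RANK as well as Toll-like receptors, differed by 0.17. Traf5, a close relative of Traf2, differed by 0.13, with signals of 6.79 on the Tc9 array and 6.66 on the Tc1 array. Both were under the 95th percentile of neg control probe sets, 7.02 for Tc9 and 7.30 for Tc1, so the Traf5 difference is uncertain.

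Downstream genes past 2-fold were about as common as among all genes. Of 43 listed genes of the NF-kappaB pathway and of death receptor signalling, 40 were measured and all 40 were detectable, with Nfkb1, Chuk and Ripk1 not analysed here. None was at least 2-fold higher on the Tc9 array and 2 (5%) were at least 2-fold lower, against 2.62% and 2.79% of detectable genes. By 1.5-fold, a rule chosen after seeing the data, 7 (17.5%) were lower, against 6.78%, and 2 (5%) were higher, against 7.8%. Nfkbiz, an atypical inhibitor protein that acts in the nucleus, had 7.54 on the Tc9 array and 8.69 on the Tc1 array and was 2.23-fold lower. Map3k5, the stress kinase ASK1, had 6.90 on the Tc9 array and 7.98 on the Tc1 array and was 2.11-fold lower, a call that ended with a pseudocount of 16 and when arrays were centred on the median of all probe sets, each of which left 1 gene.

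Within the NF-kappaB list the members of the Rel family did not move as 1 group. Rel, the c-Rel subunit of activated lymphocytes, had 10.25 on the Tc9 array and 11.22 on the Tc1 array and was 1.96-fold lower. Nfkb2, the precursor of the alternative pathway, was 1.62-fold lower, and Nfkbie, an inhibitor that binds c-Rel, was 1.56-fold lower. Rela differed by -0.15 and Relb by 0.00 at the precision given. Map3k14, the kinase NIK of the alternative pathway that TRAFs hold in check, differed by -0.09. The list's median was -0.12 over 20 genes.

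In the death receptor list the values ran in both directions, with a median of -0.07 over 20 genes. Ripk3 and Mlkl act one after the other in necroptosis, a form of lytic cell death. Ripk3 had 10.32 on the Tc9 array and 9.52 on the Tc1 array and was 1.74-fold higher, while Mlkl had 9.32 on the Tc9 array and 9.99 on the Tc1 array and was 1.60-fold lower. Tradd, the adaptor of the TNF receptor death domain, was 1.60-fold higher and Fadd, the adaptor of Fas and of TRAIL receptors, 1.40-fold higher. Otulin, which removes linear ubiquitin chains, was 1.75-fold lower. Casp8, the initiator caspase, differed by -0.16, Cflar, its inhibitor, by -0.09, and Tnfaip3, the feedback inhibitor A20, by -0.07.

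Many members lie side by side in the genome, and neighbours did not share their differences throughout. Of the 12 sets of successive members with at most 1 protein-coding gene between them in the RefSeq gene order, 11 were direct neighbours. On chromosome 17, Lta at -1.44 and Tnf at -0.85 lie next to Ltb at 0.20. On chromosome 4, Tnfrsf8 at 2.08 lies next to Tnfrsf1b at 0.22, while Tnfrsf4 at -0.19 and Tnfrsf18 at -0.15 were close to each other. On chromosome 1, Tnfsf4 and Fasl, at -0.59 and -1.50, flank Tnfsf18, which was below the threshold on both arrays. On chromosome 17 the Tnfsf9, Cd70 and Tnfsf14 genes follow each other, with Tnfsf9 lower at -0.61, Cd70 below the threshold and Tnfsf14 higher at 0.63.

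Marker lists for CD8 T cells and for the other cells of spleen and lymph node were set beside the members. The CD8 T cell markers, 6 of 8 measured, were all detectable on both arrays, with a summed intensity of 20593 on the Tc9 array and 23679 on the Tc1 array. By gene, all 6 were lower on the Tc9 array, with a median difference of -0.23. Monocyte and macrophage markers, which bear on Tnfsf13b, had 9 of 10 measured and 3 detectable, and summed to 995 on the Tc9 array and 1053 on the Tc1 array. By gene, 5 of the 9 were higher on the Tc9 array and 4 lower, with a median difference of 0.11, and among the detectable ones Lyz2 differed by 0.43, Itgam by -0.19 and Fcgr3 by -0.87. Dendritic cell markers, 8 of 8 measured and 2 detectable, summed to 1884 on the Tc9 array and 2461 on the Tc1 array. Most of each sum came from H2-Aa, with 1643 on the Tc9 array and 2199 on the Tc1 array. By gene, 5 of the 8 were lower on the Tc9 array and 3 higher. Markers of NK and innate lymphoid cells, which also make Fas ligand and TRAIL, had 5 of 5 measured and 1 detectable, and summed to 169.7 on the Tc9 array and 285.7 on the Tc1 array. Kit, the detectable one, had an intensity of 95.1 on the Tc9 array and 80.3 on the Tc1 array, so the lower sum came from 4 markers that were dim on both. CD4 and regulatory T cell markers, 3 of 4 measured, summed to 929.2 on the Tc9 array and 1231 on the Tc1 array. By gene, 2 were lower on the Tc9 array and 1 was higher. Cd4 itself had log2 signals of 8.74 on the Tc9 array and 9.33 on the Tc1 array and Ikzf2 differed by -0.95. Zbtb7b went the other way, with 8.38 on the Tc9 array and 8.03 on the Tc1 array. Stromal markers, 5 of 6 measured and 3 detectable, summed to 604.3 on the Tc9 array and 606.4 on the Tc1 array. No marker was at 0, and apart from the summed levels given here their part in the members' values was not tested.

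The array's control probe sets marked neg give a further scale for single differences. Of 585 of them that reached the threshold, 3.76% were higher on the Tc9 array and 12.5% were lower by 2-fold or more. Among the 38 detectable members 10.5% were higher and 7.89% lower by that size, so their lower share was under that of the controls. Controls and members were not matched on signal.

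**Figure D4:**
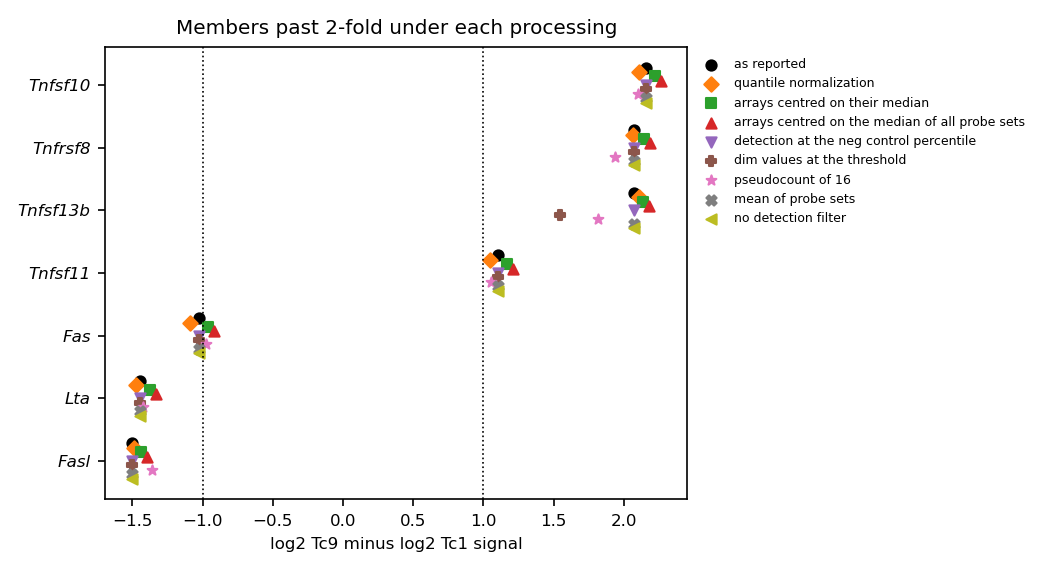
Log2 Tc9 minus log2 Tc1 difference of the 7 members past 2-fold under the reported processing (black circle) and under the 8 alternatives that keep the 2-fold rule (other symbols), with 2-fold as dotted lines. Tnfsf10, Tnfrsf8, Tnfsf13b, Tnfsf11, Lta and Fasl stay outside the dotted lines under each, and Fas crosses its line under 3. The mean of probe sets and the changes of the detection filter could not move any point.

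Under 8 other ways of processing that keep the 2-fold rule, 6 of the 7 members stayed past it in each. Not all of these could change a call. Each member has 1 probe set, so the mean of probe sets changes nothing, and dropping the filter keeps members that passed it. The control threshold changed the filter only, and dim values at the threshold changed Tnfsf13b alone among the 7. Tnfsf10 ranged from 2.10 to 2.26, Tnfrsf8 from 1.94 to 2.18, Tnfsf11 from 1.05 to 1.21, Lta from -1.48 to -1.33 and Fasl from -1.50 to -1.36. Tnfsf13b had the widest range, from 1.55 with dim values set at the threshold to 2.18, since its Tc1 signal was dim. Fas fell short of 2-fold in 3 of the 8.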

How the data were processed

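Total RNA was extracted with Trizol, biotin labelled with a sense-target method and hybridized to Affymetrix arrays, per the labels' protocols. The deposited values are linear intensities, 1 per probe set, from 4.87 to 13045.4 on the Tc9 array and from 5.12 to 14977 on the Tc1 array. How the authors summarized, background corrected and normalized the intensities is not given in the sources used here, and their close medians, 53.05 for Tc9 and 57.22 for Tc1, were taken as a sign of earlier normalization. The array's genome build is not given there either.

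Of 28846 probe sets, 19572 have 1 gene symbol in the platform annotation, giving 19505 genes; the brightest probe set stood for each of the 55 genes with several. All 45 members matched the GRCm38.p6 RefSeq gene table by Entrez number. Differences are log2 Tc9 minus log2 Tc1, computed in Python 3.11.15 with pandas 2.3.3 and numpy 2.4.6. A gene is detectable where its brighter array reaches 6.43, the median of all gene values. A fold against a dim array is a lower bound computed with the threshold. With 1 array per group no p-value or error is given, the number of arrays limits the precision, and 2-fold is a size rule. The counting was tested on simulated data with changes larger than that of any member, placed in genes far above the threshold. That test does not cover smaller changes or dim genes.

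Every member is named, with values where detectable; pathway genes past 2-fold were named by rule, and other pathway genes after their values were seen. The members and lists were chosen with earlier results of these data known. Alternatives were quantile normalization (limma 3.58.1 in R 4.3.3), median centring, a threshold at the 95th percentile of control probe sets marked neg, dim values at the threshold, a pseudocount of 16, the mean of probe sets, no filter and, chosen after seeing the data, a 1.5-fold rule and centring on all probe sets.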

Additional observations from a re-analysis of the deposited data

How the results depend on the processing

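No paired analysis was possible because each group has 1 array. The 4 members at least 2-fold higher on the Tc9 array were the same genes under each of the 9 alternatives, with Tnfsf14 added under the 1.5-fold rule, which was chosen after seeing the data. The mean of probe sets and the changes of the detection filter could not alter the members' differences. The members at least 2-fold lower numbered 3 as reported, 4 after quantile normalization, where Traf1 joined, and 2 without Fas under both centrings and with a pseudocount of 16, where Fas differed by -0.96, -0.92 and -0.98. Under the 1.5-fold rule 11 members were lower, and 2 pathway genes were higher and 7 lower. Centring on the median of all probe sets, also chosen after seeing the data, moved the median of all detectable genes by 0.11, and that of the members became -0.016 in place of -0.13. The share of higher genes among all past 2-fold became 59.0% in place of 48.5%. Pathway genes at least 2-fold lower numbered 1 in place of 2 under that centring and with the pseudocount. Ltbr, Tnfrsf14, Tnfrsf21 and Traf2 were the 4 members whose sign turned under any alternative. With detection at the 95th percentile of control probe sets marked neg, 31 members were detectable in place of 38. That percentile was 7.02 on the Tc9 array and 7.30 on the Tc1 array. It set the filter only, and no value was raised to it. Signals near the threshold or under that percentile are the least certain. Examples are Fasl and Cd40 on the Tc9 array and Tnfrsf8 and Tnfsf13b on the Tc1 array.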
